A study of Rattus norvegicus with 8 samples.

Results

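The nuclear genes for the subunits of the respiratory chain and of ATP synthase were followed in the right kidney of female rats after removal of the other kidney. Members were taken from the array by gene symbol, as every probe whose RefSeq accession names a complex I subunit of the Nduf series, the 4 Sdh genes of complex II, the Uqcr genes and Cyc1 of complex III, the Cox4 to Cox8 genes of complex IV or the Atp5 genes of complex V. This gave 76 genes on 86 of the array's 41012 probes, namely 31 genes of complex I, 4 of complex II, 9 of complex III, 16 of complex IV and 16 of complex V. A signal well above background on 4 or more of the 8 arrays was required for testing, and 74 members met this and were tested among 20950 features (a feature is a gene or an unnamed transcript, each represented by 1 probe). Uqcrq, a small complex III subunit, and Cox8c, a testis form of a complex IV subunit, were not well above background on any array and have no level here. The choice of members used symbols and no measured value.

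The animals were F344/NSlc rats, all female and 10 weeks old. There were 4 samples of the right kidney left after unilateral nephrectomy and 4 right-kidney samples after a sham operation with both kidneys in place. The labels do not say whether each sample came from its own animal, so the spread between samples may be technical. The comparison asks how transcripts of the remaining kidney differ early in its compensatory growth. The labels disagree on the time of sampling. The design text has 2 days after surgery for the study, but by the source names the sham group was taken after 1 day and the nephrectomized group after 2 days, in which case the day of sampling and the operation cannot be told apart. RNA came from whole kidney, so for every value below a change in the number of cells of a type and a change in RNA per cell cannot be told apart. Between 59.5% and 66.1% of probes were well above background on an array, no probe was saturated, and the arrays lay on 2 slides with 2 sham and 2 nephrectomized arrays on each. On both slides the nephrectomized arrays held the last positions, so position and operation cannot be told apart either.

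Complexes I to IV pass electrons from NADH and succinate to oxygen in the inner mitochondrial membrane, 3 of them pump protons, and complex V, the ATP synthase, uses the proton gradient to make ATP. Most subunits come from nuclear genes, while a small core is encoded by mitochondrial DNA and is not analysed here. Assembly factors build the complexes without staying in them. Kidney tubules, above all the proximal tubule and the thick ascending limb, are rich in mitochondria because sodium reabsorption is paid for in ATP.

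The members were mostly slightly higher in the remaining kidney, and single genes, apart from Atp5mc1, stayed short of the threshold. Of 74 tested members 69 had a higher mean in nephrectomized than in sham kidneys, against 52.5% of all features, and the median difference was 0.17 on the log2 scale (12.5%), against 0.01 over all features. Here and below a difference is the nephrectomized mean minus the sham mean of log2 values, each value being the log2 processed signal relative to the array's 75th percentile. With limma and Benjamini-Hochberg adjustment over all features, 1 member passed an adjusted p of 0.05, where 1.04% of all features were called (0.749% higher and 0.286% lower), and no member was called lower. At an unadjusted limma p under 0.05, 32 members were higher and 0 were lower, where 9.75% of all features were higher and 6.3% lower. In 28 members the ranges of the 2 groups did not overlap, all in the higher direction, against 7.06% of all features higher and 4.07% lower without overlap. These counts rest on a comparison whose direction for the members was already known when the genes were chosen, so they describe the members and carry no test of the group. Over 10 equal bins of mean signal the median difference of all features ran from -0.01 to 0.05, and it was 0.03 in the bin of highest signal, which held 64 of the 74 members.

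**Figure D1:**
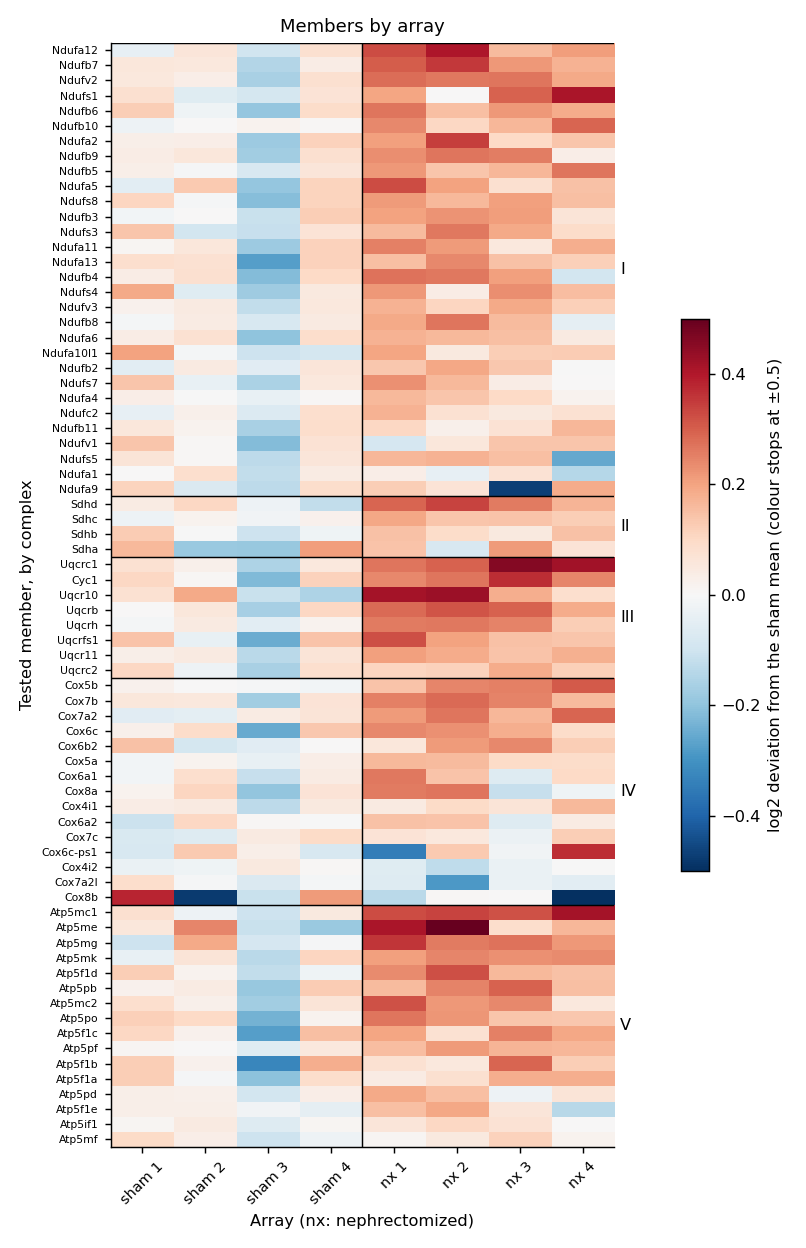
Heat map of the 74 tested members apart from 1 (vertical axis, grouped by complex I to V) on the 8 arrays (horizontal axis; nx marks nephrectomized), with colour for the log2 deviation from the gene's sham mean. The nephrectomized columns are mostly red, and sham replicate 3 is blue for most genes, being the lowest sham array for 59 of all 74.

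Averaged over the members, the sham arrays stood at 0.05, 0.02, -0.13 and 0.05 and the nephrectomized arrays at 0.18, 0.18, 0.14 and 0.12, as log2 deviations from each gene's sham mean. All 4 nephrectomized arrays therefore lay above all 4 sham arrays, and sham replicate 3 lay apart from the other sham arrays. The average over all features also separated the groups, at a smaller size, from -0.006 to 0.004 in sham and from 0.008 to 0.029 after nephrectomy. Sham replicate 3 was the lowest sham array for 59 members, compared with 31.5% of all features. Without it the members' median was 0.11, 68 members were positive, 21 had an unadjusted limma p under 0.05 (against 9.52% of all features higher in that fit) and 28 did not overlap (against 9.59%). Within slide 1 the median was 0.16 and within slide 2 it was 0.19. Scaling mattered as well, since cyclic loess normalization gave a median of 0.11 and 21 members with an unadjusted p under 0.05.

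Atp5mc1, a gene for the c subunit of the membrane ring that turns in ATP synthase, was the member that passed. Its sham values were 6.87, 6.77, 6.69 and 6.84 and its nephrectomized values 7.12, 7.13, 7.11 and 7.21, and the highest sham array stayed below the lowest nephrectomized one. It rose by 0.35 ± 0.06 (SE, log2; n = 4 each; limma adjusted p = 0.0438), a 1.27-fold change with a 95% interval from 1.16 to 1.40. The difference was 0.30 on slide 1 and 0.39 on slide 2, and with slide as a block the adjusted p was 0.0660. Leaving out any single array gave adjusted p values between 0.0726 and 0.132, so the call needs all 8 arrays. Next in order of p came Uqcrc1, a core protein on the matrix side of complex III, at 2.05, 1.99, 1.81 and 2.02 in sham and 2.24, 2.26, 2.43 and 2.39 in nephrectomized kidneys. Its groups did not overlap, and the difference of 0.36 ± 0.07 had a limma adjusted p of 0.0630. Cox5b, a subunit of complex IV on the matrix side, was tightest among the sham arrays of these genes, at 6.73, 6.71, 6.70 and 6.69, against 6.85, 6.95, 6.96 and 7.02 in nephrectomized kidneys. The difference was 0.24 ± 0.05 (adjusted p = 0.0810), a second Cox5b probe also gave 0.24, and with normexp background correction the difference was 0.10 (adjusted p = 0.470).

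Promoter windows of 300 bases, 250 before and 50 after the gene start, were read from RefSeq (build GRCr8) for 65 of the 76 members. They are shown because these genes are classical targets of a small set of nuclear factors. Whether those factors had a part in the differences was not tested. The letters searched on both strands were TGCGCANGC for NRF1, CCGGAAGT for GABPA and other ETS factors, AAGGTCA for ERR and other nuclear receptors, and AANATGGCG for YY1. The windows shown are those of the called member, of Uqcrc1, Cox5b and Ndufa12, each among the 3 members with the smallest p of its complex, and of Cox7a2l, whose value was below 0. Capitals mark a match, and a match is a description of the letters only.
Atp5mc1, chr10:81523296-81523595, minus strand, no match to the 4 motifs: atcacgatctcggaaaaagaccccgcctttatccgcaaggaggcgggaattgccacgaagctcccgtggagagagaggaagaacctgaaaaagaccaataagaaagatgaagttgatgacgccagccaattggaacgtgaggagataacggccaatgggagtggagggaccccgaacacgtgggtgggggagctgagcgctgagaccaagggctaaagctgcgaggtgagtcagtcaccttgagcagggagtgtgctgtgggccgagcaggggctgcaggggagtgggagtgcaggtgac
Uqcrc1, chr8:118467973-118468272, plus strand, NRF1 match 40 bases and YY1 match 1 base before the gene start: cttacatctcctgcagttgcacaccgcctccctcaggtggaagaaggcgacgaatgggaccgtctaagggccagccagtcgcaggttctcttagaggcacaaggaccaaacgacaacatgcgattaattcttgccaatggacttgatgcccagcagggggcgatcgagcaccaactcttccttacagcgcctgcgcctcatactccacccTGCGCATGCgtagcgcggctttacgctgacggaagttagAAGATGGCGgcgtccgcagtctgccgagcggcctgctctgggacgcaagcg
Cox5b, chr9:46417587-46417886, plus strand, ETS match 14 bases before the gene start: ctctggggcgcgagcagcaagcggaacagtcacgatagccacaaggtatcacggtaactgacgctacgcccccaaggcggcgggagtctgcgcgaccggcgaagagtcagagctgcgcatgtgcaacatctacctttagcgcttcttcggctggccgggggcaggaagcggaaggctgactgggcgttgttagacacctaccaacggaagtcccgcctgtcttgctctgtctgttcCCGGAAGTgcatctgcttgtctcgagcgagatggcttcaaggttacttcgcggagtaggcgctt
Ndufa12, chr7:30658066-30658365, plus strand, NRF1 match on the other strand 110 bases before the gene start: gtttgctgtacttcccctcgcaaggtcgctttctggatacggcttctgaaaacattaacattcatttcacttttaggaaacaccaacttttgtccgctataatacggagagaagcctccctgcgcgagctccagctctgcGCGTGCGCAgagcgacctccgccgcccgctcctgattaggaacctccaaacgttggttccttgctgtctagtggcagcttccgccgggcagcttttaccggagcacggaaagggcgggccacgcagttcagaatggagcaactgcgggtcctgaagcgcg
Cox7a2l, chr6:16936324-16936623, plus strand, NRF1 match on the other strand 12 bases before the gene start: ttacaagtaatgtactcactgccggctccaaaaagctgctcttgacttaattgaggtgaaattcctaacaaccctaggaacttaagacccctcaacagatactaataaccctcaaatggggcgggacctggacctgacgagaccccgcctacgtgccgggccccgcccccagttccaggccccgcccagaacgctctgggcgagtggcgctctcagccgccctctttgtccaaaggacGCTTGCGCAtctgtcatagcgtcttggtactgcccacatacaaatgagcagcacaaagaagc
In the printed windows no match of a motif overlapped that of another. The NRF1 letters were found in 21.5% of member windows and 4.22% of all 27457 windows, the YY1 letters in 21.5% and 3.33%, the ERR letters in 13.8% and 4.37%, and the ETS letters in 12.3% and 4.01%. At least 1 of the 4 motifs was present in 34 member windows, or 52.3%, against 14.7% of all windows. Of 59 assembly factor windows, 40.7% held at least 1 of the 4, with the NRF1 letters in 11.9%, the ETS letters in 16.9%, the YY1 letters in 13.6% and the ERR letters in 1.69%. Members with and without a motif were set side by side without a test. The median log2 difference was 0.17 in 13 tested members with the NRF1 letters and 0.16 in 50 without, 0.22 with and 0.16 without the ETS letters, 0.12 with and 0.18 without the ERR letters, and 0.15 with and 0.18 without the YY1 letters.

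**Figure D2:**
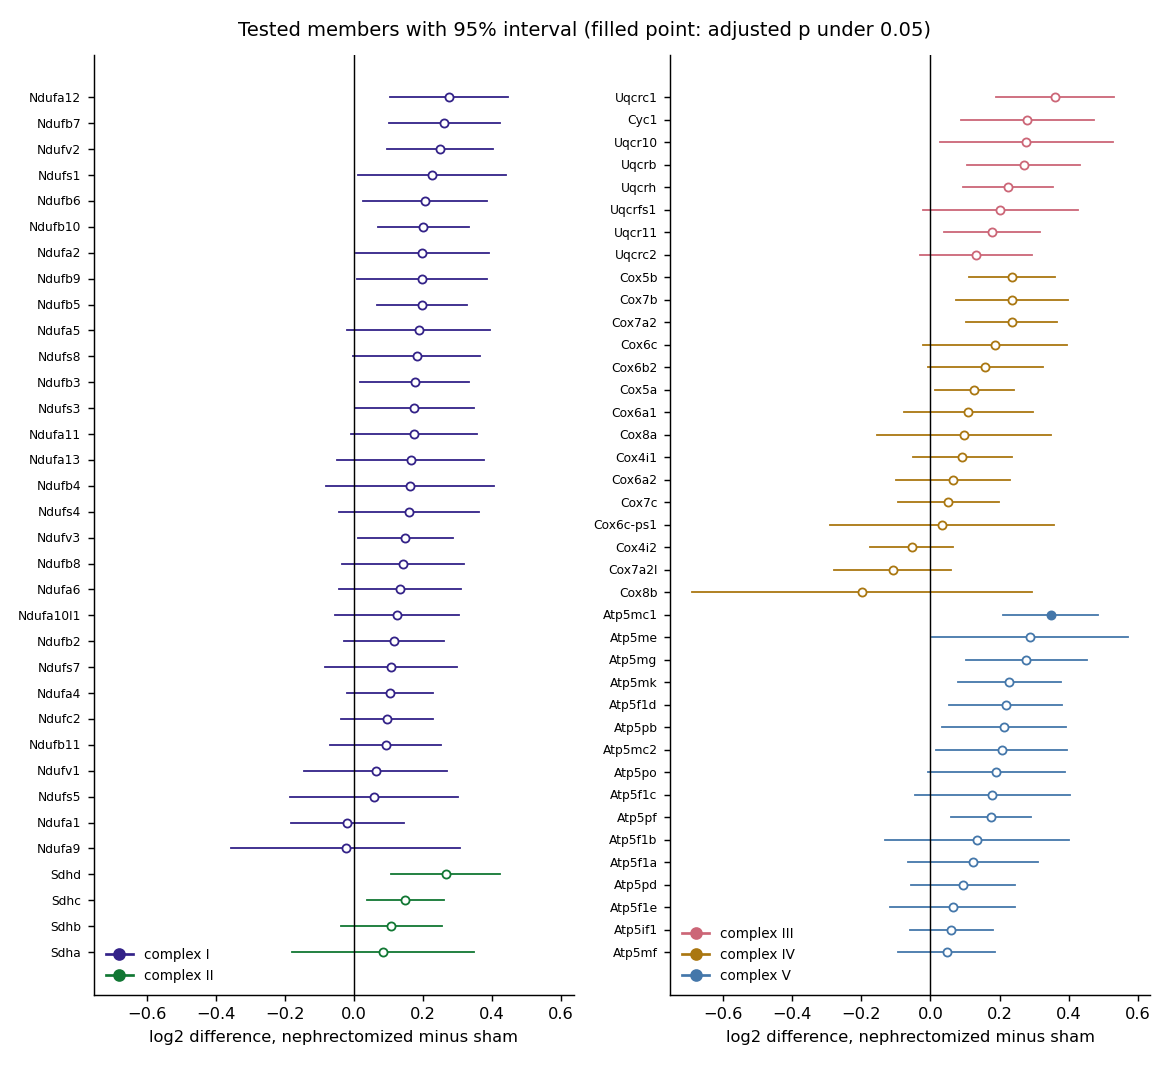
Log2 difference (horizontal axis, nephrectomized minus sham) of the 74 tested members apart from 1, sorted within complexes I to V, with bars for limma's 95% interval. Points lie mostly between 0 and 0.36, the filled point is Atp5mc1, and the 5 members below 0 are Cox8b, Cox7a2l, Cox4i2, Ndufa9 and Ndufa1.

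Complex I, the NADH dehydrogenase that feeds most electrons into the chain, had 31 tested members, of which 29 were positive, none was called, 12 had an unadjusted limma p under 0.05 (9.75% of all features higher) and 9 did not overlap (7.06% of all features higher). Their median was 0.16, with 0.14 on slide 1 and 0.16 on slide 2, and 0.11 without sham replicate 3. Without that array 5 members had an unadjusted p under 0.05 (9.52% of all features higher in that fit). Again 9 did not overlap, but the share of all features was then 9.59%. Ndufv2, an iron-sulfur subunit of the module that oxidises NADH, was at 6.74, 6.72, 6.53 and 6.77 in sham and at 6.97, 6.95, 6.96 and 6.88 in nephrectomized kidneys. The groups were apart, and the difference of 0.25 ± 0.07 had a limma adjusted p of 0.119. Ndufb7, an accessory subunit of the membrane arm, was at 5.46, 5.46, 5.26 and 5.45 in sham and at 5.71, 5.76, 5.62 and 5.58 in nephrectomized kidneys, again without overlap (0.26 ± 0.07, adjusted p = 0.119). Ndufa12, an accessory subunit that joins the peripheral arm late in assembly, was at 6.88, 6.98, 6.82 and 7.00 against 7.24, 7.32, 7.08 and 7.13, with the largest difference in this complex (0.28 ± 0.07, adjusted p = 0.119). Among the other subunits without overlap were Ndufb6, Ndufb10 and Ndufb5 of the membrane arm, at 0.21, 0.20 and 0.20, and Ndufs8, an iron-sulfur core subunit, at 0.18.

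Ndufs1, the largest iron-sulfur subunit, was at 2.60, 2.46, 2.43 and 2.59 in sham and at 2.72, 2.52, 2.82 and 2.93 in nephrectomized kidneys, with nephrectomized replicate 2 inside the sham range. Its difference was 0.23 ± 0.09 (adjusted p = 0.287), of which slide 1 gave 0.09 and slide 2 gave 0.36. Ndufv1, which binds NADH and the flavin, was at 3.77, 3.64, 3.42 and 3.71 against 3.55, 3.69, 3.77 and 3.77, and the difference of 0.06 ± 0.09 was -0.09 on slide 1 and 0.21 on slide 2. The lowest value of complex I belonged to Ndufa9, an accessory subunit near the ubiquinone site, at 4.65, 4.46, 4.41 and 4.62 in sham and 4.66, 4.61, 4.06 and 4.72 in nephrectomized kidneys. Nephrectomized replicate 3 alone was low there, and the difference of -0.02 ± 0.14 (adjusted p = 0.959) was 0.13 without it. Ndufa1, a small membrane subunit, also had a value of -0.02. The 2 probes of Ndufc2, another small membrane subunit, disagreed in sign, at 0.09 and -0.17, and neither was called.

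Complex II, succinate dehydrogenase, is shared with the citric acid cycle and is wholly encoded in the nucleus. All 4 of its genes were positive (52.5% of all features), with a median of 0.13, and none was called (0.749% of all features higher). The 2 membrane anchors that bind ubiquinone were those without overlap (7.06% of all features higher). Sdhd was at 6.57, 6.63, 6.50 and 6.41 in sham and at 6.82, 6.87, 6.79 and 6.70 in nephrectomized kidneys (0.27 ± 0.07, limma adjusted p = 0.109). Sdhc had narrow groups, at 5.47, 5.51, 5.47 and 5.51 against 5.68, 5.63, 5.63 and 5.61 (0.15 ± 0.05, adjusted p = 0.182). The 2 catalytic subunits overlapped between groups. Sdha, the flavoprotein, was at 7.12, 6.77, 6.77 and 7.17 in sham and at 7.10, 6.88, 7.17 and 7.03 after nephrectomy (0.09 ± 0.12, adjusted p = 0.768), and with 1 array left out its difference ran from 0.02 to 0.16. Sdhb, the iron-sulfur subunit, was at 5.69, 5.57, 5.47 and 5.55 against 5.72, 5.66, 5.61 and 5.72 (0.11 ± 0.06, adjusted p = 0.449). Whether anchors and catalytic subunits differ from each other was not tested.

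Complex III, the cytochrome bc1 complex between ubiquinone and cytochrome c, had a median of 0.25 (18.7%), with 8 of 8 tested genes positive, 6 without overlap (7.06% of all features higher) and 6 with an unadjusted limma p under 0.05 (9.75% of all features higher), none called. The median was 0.22 on slide 1, 0.23 on slide 2 and 0.21 without sham replicate 3. In that last fit 5 genes had an unadjusted p under 0.05 (9.52% of all features higher). Averaged over its genes, the sham arrays stood at 0.07, 0.04, -0.16 and 0.05 and the nephrectomized arrays at 0.26, 0.26, 0.25 and 0.19. Uqcrc1, described above, led this complex. Cyc1, the cytochrome c1 that hands electrons to cytochrome c, was at 4.51, 4.41, 4.18 and 4.52 in sham and at 4.65, 4.67, 4.78 and 4.65 after nephrectomy, without overlap (0.28 ± 0.08, adjusted p = 0.153). Uqcrb, a small ubiquinone-binding subunit, was at 7.13, 7.19, 6.96 and 7.23 against 7.41, 7.44, 7.42 and 7.31 (0.27 ± 0.07, adjusted p = 0.118), and its other 2 probes gave 0.27 and 0.22. Uqcrh, the acidic hinge subunit that helps cytochrome c1 meet cytochrome c, was at 6.69, 6.74, 6.64 and 6.71 against 6.96, 6.96, 6.94 and 6.82 (0.22 ± 0.06, adjusted p = 0.105). Uqcr11, another small subunit, had 0.18 ± 0.06 without overlap, and Uqcr10 had 0.28 ± 0.11 with nephrectomized replicates 3 and 4 inside the sham range. Uqcrfs1, the Rieske iron-sulfur protein, was at 6.08, 5.91, 5.70 and 6.09 in sham and 6.27, 6.15, 6.09 and 6.08 in nephrectomized kidneys, and these ranges met (0.20 ± 0.10, adjusted p = 0.356). Uqcrc2, the second core protein, was lowest in this complex at 0.13 ± 0.07 (adjusted p = 0.403), with sham values from 5.57 to 5.83 and nephrectomized values from 5.84 to 5.91. Without sham replicate 3 Uqcrfs1 had 0.12 and Uqcrc2 0.08.

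**Figure D3:**
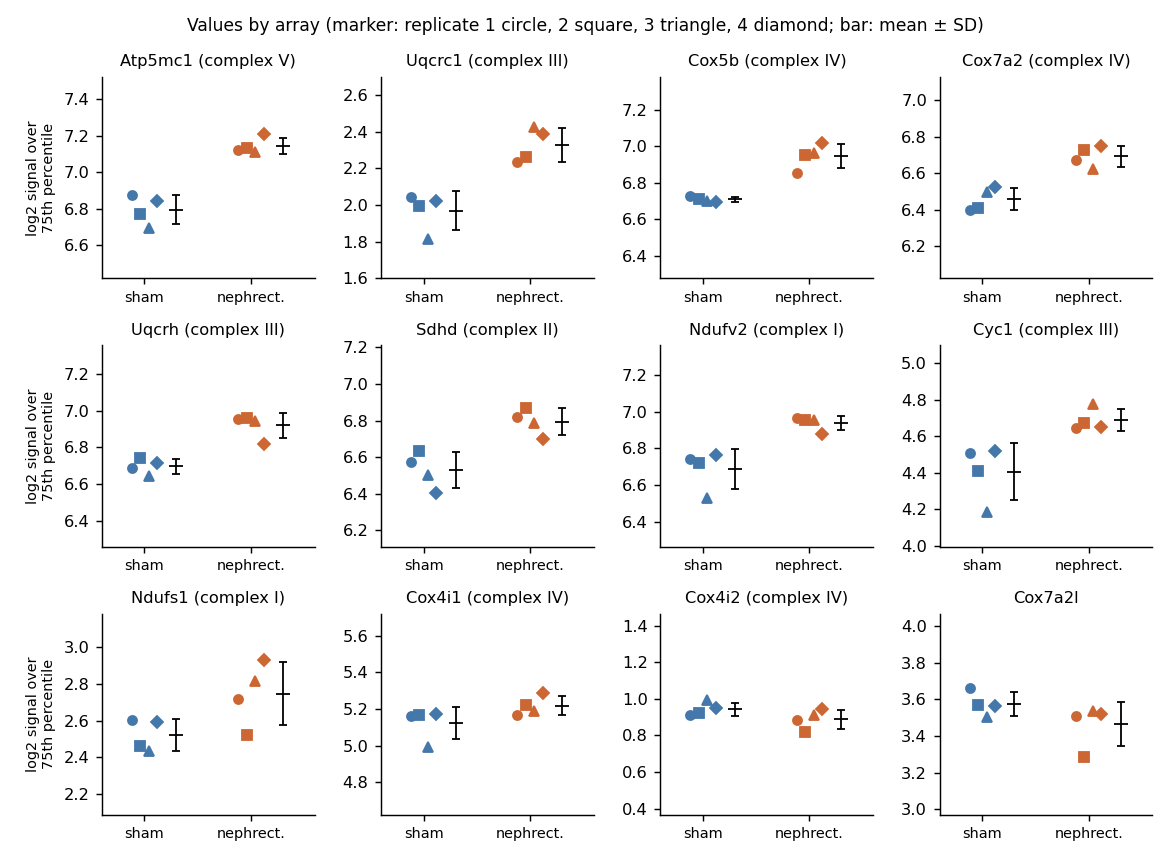
Log2 signal relative to the array's 75th percentile (vertical axis, a span of 1.1 in each panel) for 12 members in sham and nephrectomized kidneys, with a point per array and a bar for mean ± SD (n = 4). Groups do not overlap for the first 8 genes, and they overlap for Ndufs1, Cox4i1, Cox4i2 and Cox7a2l.

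Complex IV, cytochrome c oxidase, had a median of 0.10 (7.02%), with 12 of 15 tested genes positive, 4 without overlap (7.06% of all features higher), 4 with an unadjusted limma p under 0.05 (9.75% of all features higher) and none called. The median was 0.15 on slide 1, 0.10 on slide 2 and 0.07 without sham replicate 3, and it was 0.06 after quantile and 0.05 after cyclic loess normalization. Without the tissue forms, the pseudogene and Cox7a2l, left out after seeing the data, 9 genes remained and their median was 0.13. Beside Cox5b, the genes without overlap were Cox7a2, Cox7b and Cox5a. Cox7a2, the form of subunit 7a found in most tissues, was at 6.40, 6.41, 6.50 and 6.52 in sham and at 6.67, 6.73, 6.62 and 6.75 after nephrectomy (0.23 ± 0.06, adjusted p = 0.0959). Cox7b was at 6.94, 6.94, 6.71 and 6.95 against 7.14, 7.17, 7.13 and 7.05 (0.24 ± 0.07, adjusted p = 0.154). Cox5a, a matrix-side subunit beside subunit 4, was at 6.08, 6.12, 6.06 and 6.13 against 6.26, 6.25, 6.19 and 6.19 (0.13 ± 0.05, adjusted p = 0.266). Ndufa4 carries a complex I name but is now placed in complex IV. It was at 6.88, 6.85, 6.81 and 6.85 against 7.01, 6.99, 6.95 and 6.87, with a difference of 0.10 ± 0.05 (adjusted p = 0.392).

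Several complex IV subunits exist in a general and a tissue-bound form, and of the forms measured none passed the test. Cox4i1, the general form of subunit 4, was at 5.16, 5.17, 4.99 and 5.18 in sham and 5.17, 5.22, 5.19 and 5.29 in nephrectomized kidneys (0.09 ± 0.06, adjusted p = 0.520), and without sham replicate 3 the difference was 0.05. Cox4i2, its lung and hypoxia-linked form, was at 0.91, 0.92, 0.99 and 0.95 against 0.88, 0.82, 0.91 and 0.94 (-0.05 ± 0.05, adjusted p = 0.662). Cox6a1 and its heart and skeletal muscle form Cox6a2 had differences of 0.11 ± 0.08 and 0.07 ± 0.07, and Cox6a1 had 0.07 without sham replicate 3. Cox8a was at 8.47, 8.56, 8.25 and 8.52 against 8.71, 8.72, 8.33 and 8.43, a difference of 0.10 ± 0.11 that was 0.20 on slide 1, -0.0042 on slide 2 and 0.03 without sham replicate 3. Cox8b, the muscle form, spread from -1.93 to -1.08 in sham and from -2.12 to -1.45 in nephrectomized kidneys, and its value of -0.20 ± 0.21 ran from -0.36 to -0.04 with 1 array left out and was -0.01 on slide 1. Cox6b2, known from testis, had 0.16 ± 0.07 with overlapping groups. Cox7a2l, which links complexes III and IV into supercomplexes, was at 3.66, 3.57, 3.50 and 3.56 in sham and at 3.51, 3.29, 3.54 and 3.52 after nephrectomy, with overlap and a value of -0.11 ± 0.07 (adjusted p = 0.514).

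In complex V all 16 tested genes were positive, with a median of 0.19 (13.7%), 1 called (0.749% of all features higher), 8 with an unadjusted limma p under 0.05 (9.75% of all features higher) and 7 without overlap (7.06% of all features higher). The median was 0.16 on slide 1, 0.24 on slide 2 and 0.13 without sham replicate 3. In the membrane part, beside Atp5mc1, Atp5mg, subunit g, was at 7.12, 7.41, 7.14 and 7.22 in sham and 7.58, 7.48, 7.49 and 7.44 in nephrectomized kidneys (0.28 ± 0.08, adjusted p = 0.126). Atp5mk, a small protein that supports dimers of the enzyme, was at 6.58, 6.68, 6.48 and 6.73 against 6.82, 6.86, 6.85 and 6.85 (0.23 ± 0.07, adjusted p = 0.137). In both genes the groups were apart. Atp5me, subunit e, which helps pairs of the enzyme to form, was at 8.66, 8.85, 8.49 and 8.42 in sham and 9.01, 9.10, 8.69 and 8.77 in nephrectomized kidneys, and these ranges overlapped (0.29 ± 0.12, adjusted p = 0.304). Atp5mc2, which codes for the same mature c subunit as Atp5mc1, had 0.21 ± 0.08 on the probe used and 0.01 ± 0.09 on its other probe. Atp5mf, subunit f, had the smallest value of the complex, with 7.18, 7.11, 6.98 and 7.05 in sham, 7.09, 7.13, 7.20 and 7.10 after nephrectomy and a difference of 0.05 ± 0.06 (adjusted p = 0.757).

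Atp5f1b, the catalytic beta subunit, was at 6.09, 5.99, 5.64 and 6.15 in sham and at 6.05, 6.02, 6.26 and 6.09 in nephrectomized kidneys. The groups overlapped, and the difference of 0.14 ± 0.12 (adjusted p = 0.615) was -0.01 on slide 1, 0.28 on slide 2 and 0.03 without sham replicate 3. Atp5f1a, the alpha subunit, was at 5.76, 5.63, 5.43 and 5.73 against 5.68, 5.72, 5.82 and 5.82, with 0.12 ± 0.08 over all arrays, 0.00 on slide 1 and 0.05 without sham replicate 3. Atp5f1c, the gamma subunit of the central stalk, had 0.18 ± 0.10 (adjusted p = 0.412), which was 0.09 without sham replicate 3. Atp5if1, the inhibitor that stops the enzyme from consuming ATP, was at 6.06, 6.09, 5.98 and 6.06 against 6.11, 6.15, 6.12 and 6.05 (0.06 ± 0.05, adjusted p = 0.625). Among stalk subunits the groups did not overlap for Atp5f1d of the central stalk, at 0.22, or for Atp5pb, Atp5po and Atp5pf of the peripheral stalk, at 0.21, 0.19 and 0.18.

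Assembly factors, which are no subunits of the finished complexes, were also mostly higher. Of 66 listed, 47 were on the array and tested, and 43 were positive (52.5% of all features). Of these 47, 1 was called (0.749% of all features higher), 14 had an unadjusted limma p under 0.05 (9.75% of all features higher) and 11 did not overlap (7.06% of all features higher). Their median was 0.11 (8.25%), against 0.17 for the members and 0.01 for all features. Without sham replicate 3 the medians were 0.10 for the factors and 0.11 for the members, and the difference between these sets was not tested. Averages over the factors were 0.00, 0.00, -0.06 and 0.06 on the sham arrays and 0.12, 0.09, 0.13 and 0.11 on the nephrectomized arrays. All nephrectomized arrays thus lay above all sham arrays, as they did at a smaller size over all features. Higd1a, a hypoxia-inducible partner of complex IV, rose by 0.34 ± 0.06 (adjusted p = 0.0477), from 4.92, 4.86, 4.80 and 4.93 to 5.14, 5.31, 5.21 and 5.19. Cox20, a chaperone for the mitochondrially encoded COX2, had 0.32 ± 0.06 (adjusted p = 0.0571), and Ndufaf5, which modifies the complex I subunit Ndufs7, had 0.30 ± 0.06 (adjusted p = 0.0519). In neither gene did the groups overlap. By complex, the factors' medians were 0.12 for complex I, 0.16 for the 2 of complex II, 0.11 for III, 0.11 for IV and 0.10 for V. In the list for complex I, Ndufaf4 had 0.18. The 2 factors of complex II, Sdhaf1 and Sdhaf2, both had 0.16, Uqcc2 and Bcs1l of complex III had 0.24 and 0.16, and Atpaf2 and Atpaf1, which chaperone the alpha and beta subunits of ATP synthase, had 0.19 and 0.15.

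**Figure D4:**
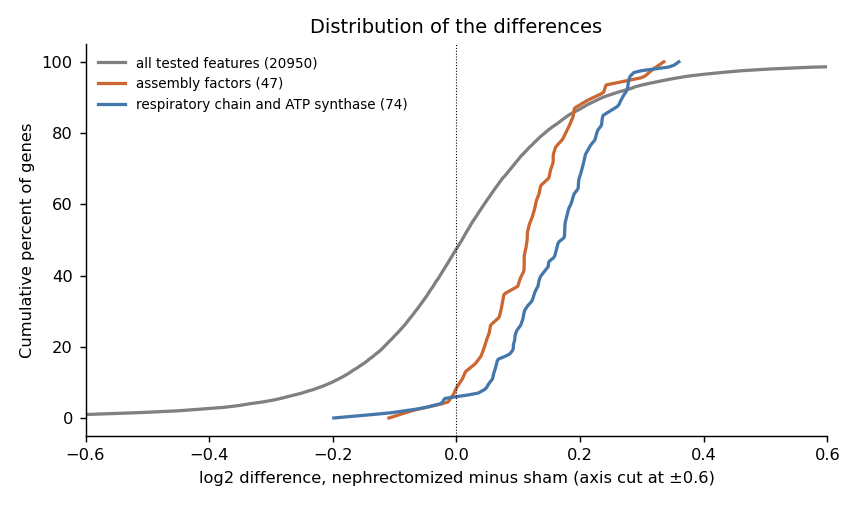
Cumulative percent of genes (vertical axis) against the log2 difference (horizontal axis, nephrectomized minus sham) for all 20950 tested features, 47 assembly factors and 74 members. The curve of all features crosses 50% at 0.01, that of the assembly factors at 0.11 and that of the members at 0.17.

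Enzymes that supply the chain lay in the same direction as the subunits. Of 16 tested genes of the citric acid cycle and pyruvate dehydrogenase, 15 were positive (52.5% of all features), none was called, 8 did not overlap (7.06% of all features higher) and the median was 0.18. Idh3a, the catalytic subunit of the NAD-linked isocitrate dehydrogenase, had 0.30 ± 0.06 (limma adjusted p = 0.0604), with sham arrays from 1.86 to 2.06 and nephrectomized arrays from 2.21 to 2.30. Cs, citrate synthase, had 0.30 ± 0.07 (adjusted p = 0.0934). Of 12 listed genes for mitochondrial carriers, porins and related proteins, 11 were on the array and 8 were tested. All 8, among them the uncoupling protein Ucp2 and the creatine kinase Ckmt1, were positive with a median of 0.17, and none was called. The ADP/ATP exchangers Slc25a4 and Slc25a5 had 0.32 ± 0.08 and 0.22 ± 0.07. Electron carriers and ubiquinone synthesis were mixed, with 11 of 16 positive, none called and a median of 0.06, or 0.02 with 9 positive without sham replicate 3. There Coq7, a hydroxylase of ubiquinone synthesis, had 0.32 ± 0.08 and Coq3, a methyltransferase of that path, 0.20 ± 0.06, while Coq8a, a kinase-like protein of the same path, had -0.23 ± 0.09 (adjusted p = 0.254). Cytochrome c, Cycs, had 0.31 ± 0.10 without overlap. Regulators of mitochondrial gene expression came out otherwise. Of 18 tested, 7 were positive, none was called and the median was -0.06, with Polg2, the accessory subunit of the mitochondrial DNA polymerase, at -0.26 ± 0.10 (adjusted p = 0.258), Yy1 at -0.12 ± 0.06 and the coactivator Ppargc1a at -0.18 ± 0.14. Other factors whose letters were searched in the promoters went both ways, with Nrf1 at 0.11 ± 0.19, Esrra at 0.10 ± 0.06 and Gabpa at -0.10 ± 0.06.

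**Figure D5:**
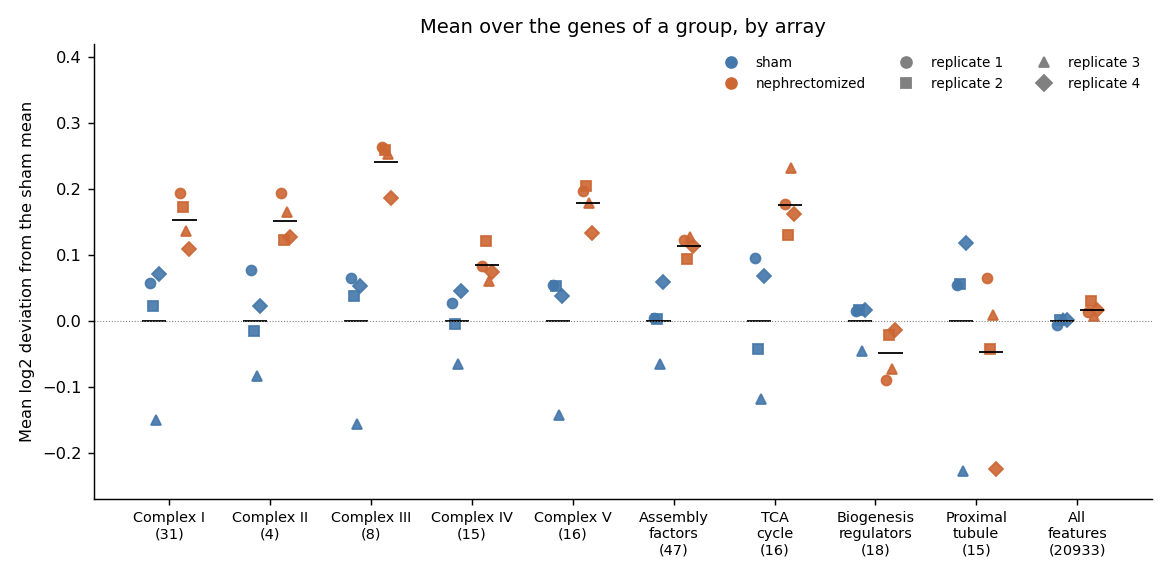
Mean log2 deviation from the sham mean (vertical axis) over the genes of each group (number in brackets), with a symbol per array and a line at the mean of 4 arrays. For the 5 complexes, the assembly factors and the citric acid cycle (TCA) every nephrectomized array lies above every sham array. The same holds at a smaller size for all features, with sham arrays from -0.006 to 0.004 and nephrectomized arrays from 0.008 to 0.029. In the proximal tubule list sham replicate 3 and nephrectomized replicate 4 are lowest at -0.23 and -0.22.

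Markers of cell types were read beside these values. Of 15 proximal tubule genes, all tested and all well above background on every array, 7 were positive and none was called, with a median of -0.03. Without sham replicate 3 their median was -0.11 with 3 positive, and on slide 1 it was -0.13. Their mean ranged from -0.23 to 0.12 on the sham arrays and from -0.22 to 0.07 on the nephrectomized arrays, and sham replicate 3, low for the members, was also lowest here. Hnf4a, a transcription factor of the proximal tubule, had -0.24 ± 0.05 without overlap (limma adjusted p = 0.0742), and Cubn, an uptake receptor, had -0.33 ± 0.15. Of 8 tested thick ascending limb and distal tubule genes 7 were positive and none was called, with a median of 0.15 (0.26 on slide 1 and 0.04 on slide 2), and means from -0.08 to 0.04 in sham and from 0.04 to 0.26 after nephrectomy. Calb1, a calcium-binding protein of the distal tubule, had 0.46 ± 0.09 (adjusted p = 0.0519), while Umod, the defining product of the thick ascending limb, had 0.03 ± 0.14. Of 10 leukocyte genes 7 were tested, all 7 were negative and the median was -0.33. S100a9, S100a8 and Adgre1 were called lower, at -1.40, -1.69 and -0.51, where 0.286% of all features were called lower. Cd68, Lyz2 and Csf1r, at -0.11, -0.04 and -0.05, overlapped between groups, as did Ptprc at -0.33. Means over the 7 genes ran from -0.05 to 0.07 in sham and from -0.68 to -0.53 after nephrectomy, with S100a8 and S100a9 furthest from 0. Medians were 0.02 over 9 collecting duct, 0.01 over 5 podocyte and -0.05 over 6 endothelial genes. All of 8 tested mitosis genes were positive with a median of 2.29 (1.53 with normexp), 5 of them called (0.749% of all features higher). Of the called genes, Ttk and Nuf2 were well above background on only 2 and 3 sham arrays, but on all 4 nephrectomized arrays. Those 2 would thus pass the filter through the group where they are high. The erythroid, fat and muscle lists had 3, 3 and 2 tested genes, none of them called. The part of any of these in the members' differences was not tested.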

How the data were processed

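RNA of 4 sham and 4 nephrectomized kidneys was labelled with Cy3 and hybridised to 1-colour Agilent arrays, per the labels. The authors deposited scanner files of Agilent Feature Extraction 10.5.1.1, whose processed signal is a background-subtracted intensity with no normalization across arrays, per the file headers. A series table of log2 values deposited by the authors matched the scanner values once those were scaled to the 75th percentile and centred on each probe. Other deposited columns flag outliers and spots well above background.

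Of 45018 spots, 1639 control spots and outliers were left out. Log2 was taken of each spot, the spots of a probe were averaged and the 75th percentile of the array was set to 0. Probes were named by accession through a RefSeq table of GRCr8, which matched 18713 of 41012 probes. The headers name another assembly, so the only coordinates given are those of RefSeq promoter windows. The probe with the highest mean stood for its gene. With 25250 probes past the filter, sham and nephrectomized arrays were compared in limma 3.58.1 (R 4.3.3; lmFit and eBayes; residual df 6, prior df 2.37), and p-values were adjusted by Benjamini-Hochberg over 20950 features. Intervals are limma's 95% intervals. For 38 of the 76 members RefSeq also lists a pseudogene, whose transcripts a probe may share. No probe was named for 134 further matching symbols, 97 of them pseudogenes. The labels do not say that samples are separate animals, so the spread behind each p-value may be technical, and the number of arrays limits the precision.

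Members and lists were chosen with earlier results of these data known. Named are called members, the 3 smallest p and the lowest difference of each complex, core subunits and isoform pairs, and the called and 2 smallest-p genes of other lists. Other genes named were chosen after their values were seen. 1 member is counted but not reported by name or drawn here. The limma step was run on simulated data with changes larger than that of any member and with independent noise. That run does not cover changes as small as those of the members, or arrays that shift together. Alternatives were other background correction, normalization, filters, probe rules, variance models, array weights, blocks, slides, the series table and leaving out each array. Same-numbered sham and nephrectomized arrays deviated together with correlations of 0.14, 0.01, -0.06 and -0.21, so the numbers were not taken as pairs.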

Additional observations from a re-analysis of the deposited data

Results flagged for a closer look

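In each group of 4 arrays the lowest or highest array was set against the other 3, and 10 of 88 such groups had an array standing apart by Dixon's 95% criterion for the gap over the range. Chance alone gives about 1 in 20 for independent groups. These groups share the same arrays, and the means are taken over the members themselves. The flags are therefore not independent, and that rate is only a rough guide. Sham replicate 3 stood below the other sham arrays for Ndufb7 at 5.26 (others 5.45 to 5.46), Cox7b at 6.71 (6.94 to 6.95) and Cox4i1 at 4.99 (5.16 to 5.18). The same array stood apart in the mean over all members at -0.13 (0.02 to 0.05), over complex III at -0.16 (0.04 to 0.07) and over complex V at -0.14 (0.04 to 0.05). Nephrectomized replicate 4 stood below the other nephrectomized arrays for Uqcrh at 6.82 (6.94 to 6.96), for Ndufv2 at 6.88 (6.95 to 6.97) and in the mean over complex III at 0.19 (0.25 to 0.26). For Uqcrc2, nephrectomized replicate 3 stood above the others at 5.91 (5.84 to 5.85).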

How the results depend on the processing

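The medians of the members, the complexes and the assembly factors stayed positive under all settings run. The count of called members, 1 over all arrays, was 0 after quantile normalization, median scaling, cyclic loess normalization, without a filter on dim probes, with slide as a block, on slide 1 or slide 2 alone and without any single array. It was 2 (Atp5mc1 and Uqcrc1) with all 8 arrays required above background and with array weights, and 3 (with Cox5b) with trend and robust variance. Calls over all features rose in these settings too, from 157 higher and 60 lower of 20950. They were 295 higher and 99 lower of 19208 with all 8 arrays required, and 386 and 118 of 20950 with array weights. With trend and robust variance they were 398 and 132 of 20950. The median of complex IV, 0.10, was 0.057 after quantile normalization, 0.057 with array weights, 0.045 after cyclic loess and 0.15 on slide 1, and that of complex V, 0.19, was 0.11 after quantile normalization. Leaving out 1 array at a time gave 0 called members, and medians from 0.11 to 0.20 for all members, 0.10 to 0.14 for the assembly factors, 0.11 to 0.20 for complex I, 0.11 to 0.16 for II, 0.21 to 0.28 for III, 0.07 to 0.13 for IV and 0.13 to 0.21 for V. Among the members named by rule, values changed sign for Sdhb (-0.017 with normexp), Atp5f1b (-0.0088 on slide 1), Cox6a2 and Cox8a (-0.013 and -0.0042 on slide 2), Atp5mf (-0.023 after cyclic loess, -0.035 on slide 1), Ndufv1 (-0.086 on slide 1, from -0.0095 to 0.11 with 1 array left out) and Ndufa9 (0.0091 with normexp, 0.076 on slide 1, from -0.093 to 0.13 with 1 array left out). Other members also changed sign, such as Ndufa1 (0.0069 on slide 2), Atp5f1e (-0.048 after quantile normalization) and Ndufs5 (-0.017 on slide 2). The cause was not tested. With the replicate number as a block, 0 members were called (Atp5mc1 adjusted p = 0.136) and over all features 6 were higher and 4 lower, against 157 and 60 without the block. The replicate numbers did not pair the arrays. The members without overlap numbered between 19 and 31 over the settings and were not recounted on single slides. The shares of all features for these settings are not given here, so the range cannot be set against them. Such a share can move, as it was 7.06% higher over all arrays and 9.59% without sham replicate 3. Chosen after seeing the data, leaving out the tissue forms, Atp5if1, Cox7a2l and the pseudogene gave a median of 0.18 for all members, 0.13 for complex IV and 0.19 for V, and counting Ndufa4 in complex IV gave 0.17 for complex I and 0.10 for IV.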
